A study of Mus musculus with 12 samples.

Results

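Interferon-stimulated genes were followed across the hearts of A17fl/fl and A17α-MHCKO mice given normal saline (NS) or doxorubicin (DOX). The group was defined by name, as 45 genes known to respond to interferon, and all 45 were found among the 53465 genes of the table and among the 16101 genes with enough counts to be tested. Type I and type III interferons act through a complex that holds STAT2 and IRF9 and binds the interferon-stimulated response element (ISRE) in target promoters. Interferon-γ acts at another element, the gamma-activated sequence (GAS). The products of the target genes block viral replication, sense foreign nucleic acid, attach ISG15 to proteins or load GTPases onto the membranes around pathogens, and many of them are transcribed at a low level in uninfected tissue, the heart included.

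A17fl/fl mice carry floxed Adam17 alleles and no Cre, and in A17α-MHCKO mice Cre under the cardiomyocyte promoter α-MHC removes exon 2 of Adam17, the gene of the shedding protease ADAM17. Cells of the heart other than cardiomyocytes keep the gene in both. Doxorubicin, an anthracycline, was given as 4 doses of 5 mg/kg that added up to 20 mg/kg, and the control mice received normal saline in the same volume. The 4 groups, A17fl/fl and A17α-MHCKO with NS or with DOX, held 3 mice each with 1 library per mouse, and hearts were taken 4 weeks after the last injection. The mice were males, aged 8 weeks when the injections began. The genotypes differ both in Adam17 and in carrying Cre, and without a group that has Cre alone these cannot be told apart. Of each gene the text gives counts scaled to a common library size by TMM (CPM), or FPKM where levels of different genes are set side by side.

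The 12 libraries held between 15950717 and 21725076 counts, and the 45 genes took 0.0798% to 0.215% of them. Single members had between 7 counts (Mx1, 1 library) and 6504 counts (Iigp1, 1 library). Adam17 was between 27.9 and 36.8 CPM in the 6 A17α-MHCKO libraries and between 43.6 and 70.9 CPM in the 6 A17fl/fl libraries, without overlap. Markers of cardiomyocytes summed to between 13900 and 37400 CPM. By principal components 1 library stood apart, A17fl/fl + NS replicate 1, at -120 on the first principal component of all genes against -12.9 to 28.4 in the other 11. Neutrophil markers (S100a8, S100a9, Csf3r, Retnlg, Cxcr2, Ly6g) summed to 2220 CPM in that library and to between 5.21 and 65.5 CPM in the others, and all 6 were highest there. Macrophage markers summed to 2210 CPM there and to between 553 and 838 CPM elsewhere. In bulk heart, fewer cells of a type and less RNA per cell cannot be told apart. This mouse is 1 of the 3 controls for both the doxorubicin effect in A17fl/fl mice and the genotype comparison after normal saline. The counts of members and of pathway genes past the study's limits in those comparisons and in the interaction are therefore given with and without it. Other counts include it unless the text says otherwise.

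The promoters of 6 members are shown first, since promoters of interferon targets can carry the ISRE. They are the 6 with the smallest p among the genes that passed the study's limits between the genotypes and have a promoter in the RefSeq table. Shown are the 200 bases before the transcription start and the first 10 after it, in RefSeq's annotation of GRCm38.p6. The windows are chr11:72301429-72301638 for Xaf1, chr19:34640689-34640898 for Ifit1, chr19:34583329-34583538 for Ifit3, chr19:34607757-34607966 for Ifit3b and chr12:26469015-26469224 for Cmpk2, all on the plus strand, and chr8:71537463-71537672 for Bst2 on the minus strand. Capitals mark matches to the ISRE written as GAAANNGAAA, searched on both strands, where it reads TTTC, 2 bases, TTTC on the other one.
Ifit1: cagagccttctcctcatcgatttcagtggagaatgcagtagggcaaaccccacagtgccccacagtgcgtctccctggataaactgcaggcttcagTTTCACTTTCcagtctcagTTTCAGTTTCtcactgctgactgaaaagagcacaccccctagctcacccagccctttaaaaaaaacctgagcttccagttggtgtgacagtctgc
Ifit3: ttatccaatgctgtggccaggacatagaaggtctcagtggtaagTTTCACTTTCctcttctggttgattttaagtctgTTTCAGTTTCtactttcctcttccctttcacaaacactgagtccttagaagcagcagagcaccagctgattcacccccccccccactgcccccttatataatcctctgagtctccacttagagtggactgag
Ifit3b: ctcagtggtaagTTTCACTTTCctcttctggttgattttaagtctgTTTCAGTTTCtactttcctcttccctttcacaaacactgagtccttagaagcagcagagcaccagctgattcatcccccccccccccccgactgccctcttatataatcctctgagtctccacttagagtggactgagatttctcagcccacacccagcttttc
Bst2: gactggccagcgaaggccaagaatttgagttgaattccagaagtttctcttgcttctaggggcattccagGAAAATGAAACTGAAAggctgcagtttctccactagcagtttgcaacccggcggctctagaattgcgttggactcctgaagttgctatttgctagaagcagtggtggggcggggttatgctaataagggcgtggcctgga
Xaf1: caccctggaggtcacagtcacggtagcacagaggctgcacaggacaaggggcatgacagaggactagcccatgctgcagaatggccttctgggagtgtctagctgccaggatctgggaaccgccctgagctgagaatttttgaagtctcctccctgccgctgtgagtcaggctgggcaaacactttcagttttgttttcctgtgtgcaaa
Cmpk2: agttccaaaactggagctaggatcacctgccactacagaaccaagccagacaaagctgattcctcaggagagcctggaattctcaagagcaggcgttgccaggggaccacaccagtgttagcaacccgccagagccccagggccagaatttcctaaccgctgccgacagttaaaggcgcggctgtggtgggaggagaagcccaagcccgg

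Ifit1, Ifit3, Ifit3b and Bst2 held 2 ISRE matches each, which overlap each other in Bst2. In Ifit1 they began at positions -104 and -85 from the start, in Ifit3 at -156 and -122, and in Ifit3b at -188 and -154. The pair in Ifit3b has the same letters as the pair in Ifit3. Xaf1 and Cmpk2 held no match in their windows, which says only that these letters are not there. Over the 33 members with a promoter window of 300 bases in the RefSeq table, 18 (54.5%) held the ISRE, against 1079 of 27025 genes (3.99%). The GAS, searched as TTCNNNGAA, was in 9 of the 33 (27.3%) and in 9.55% of all genes. The other 12 members (Oas2, Mx1, Mx2, Rtp4, Dhx58, Zbp1, Usp18, Parp9, Parp14, Iigp1, Ifi27 and Ifi27l2a) had no window in that table. A match is a description of the sequence and not evidence of binding.

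Several members lie side by side in the genome. Ifit2, Ifit3, Ifit3b and Ifit1 follow each other on chromosome 19 between 34550694 and 34650009 (GRCm38), and Gbp7, Gbp3 and Gbp2 on chromosome 3 between 142530342 and 142638008. Rsad2 (chromosome 12, 26442746 to 26456452, minus strand) and Cmpk2 (26469204 to 26479837, plus strand) are transcribed away from each other. Dtx3l and Parp9 on chromosome 16 overlap at their starts on opposite strands, so that counts of these genes can be mixed if strand was not used. Of the words of 75 bases in its transcripts, Ifit3 shares 41.1% with other genes, Ifit3b 35.7% and Oas1a 47.6%, mainly with Oas1g. The division of fragments between such copies is uncertain, and no other member shared more than 11.3%.

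Levels spanned a wide range. Per length, the most abundant members over the 12 libraries were Ifitm3, a membrane protein that blocks virus entry, at a mean of 214 FPKM, Ifi27l2a at 134 FPKM and the tetherin gene Bst2 at 50.3 FPKM. Iigp1, a GTPase of the immunity-related (IRG) family, had a mean of 43.9 FPKM and Ifi27 one of 28.6 FPKM. The lowest were Mx2 at 0.568 FPKM, Oas3 at 0.442 FPKM and Mx1 at 0.276 FPKM. The order of the groups was more alike among members than these levels. A17α-MHCKO + NS mice had the highest group mean of the 4 for 38 of the 45 genes, A17fl/fl + NS mice for 6 and A17fl/fl + DOX mice for 1. The lowest group mean was in A17fl/fl + NS mice for 29 members, in A17fl/fl + DOX mice for 11 and in A17α-MHCKO + DOX mice for 5. The order of the groups was not counted over all tested genes.

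**Figure D1:**
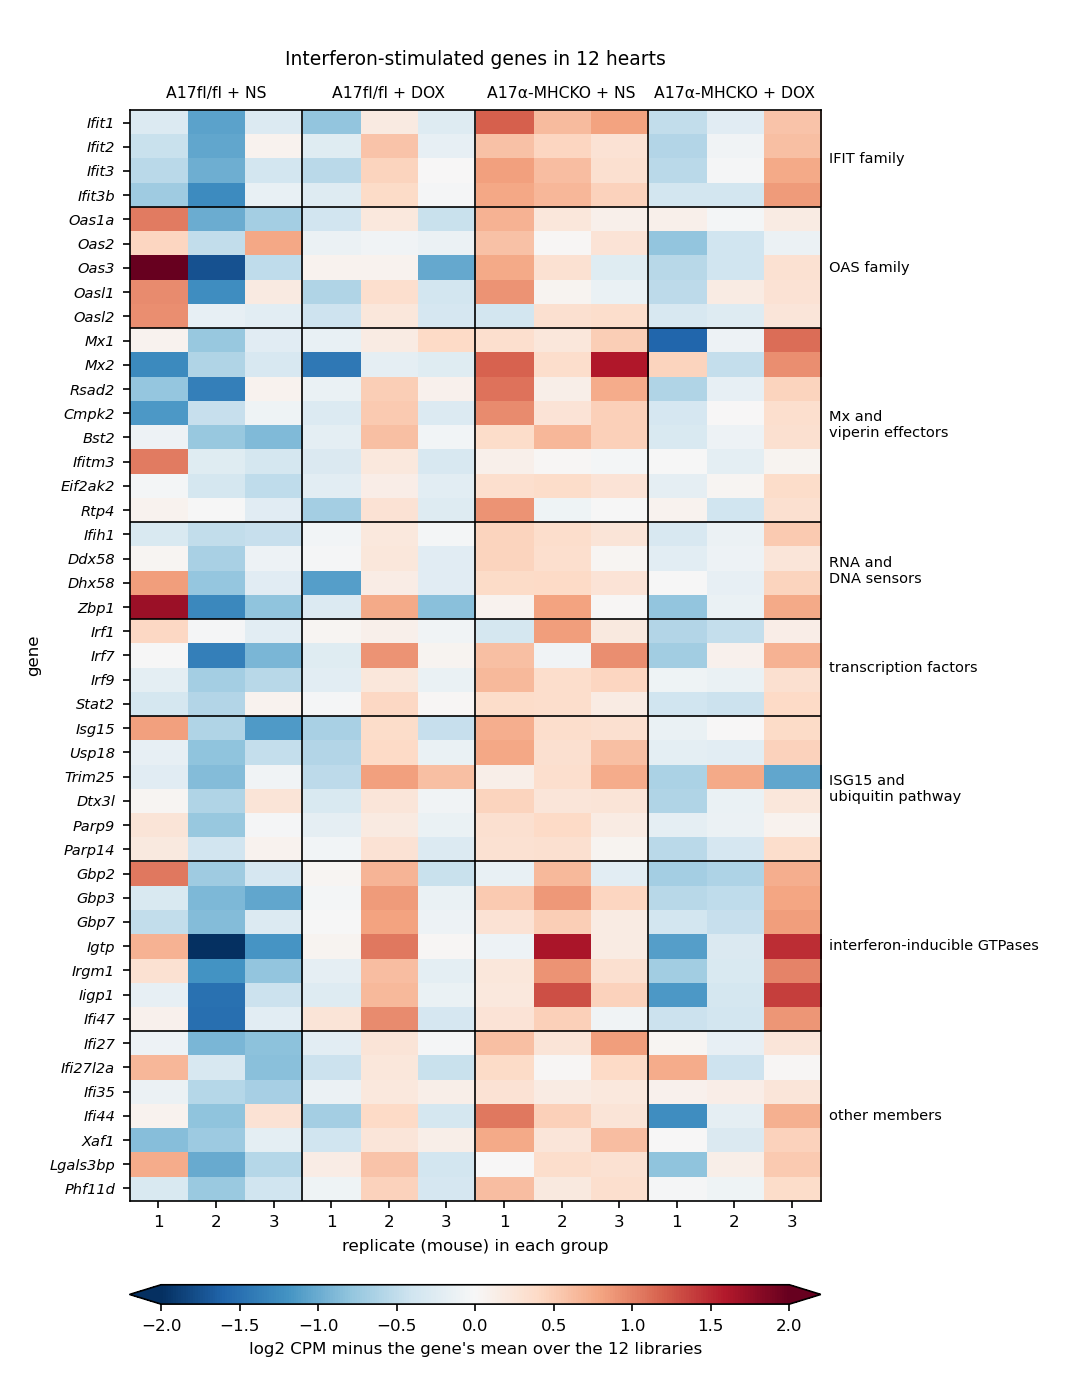
Level of each of the 45 interferon-stimulated genes in each of the 12 libraries, drawn as the difference in log2 CPM from the gene's own mean over the libraries. Genes are rows ordered by role and libraries are columns ordered by group, and A17α-MHCKO + NS mice have the highest group mean for 38 of the 45 genes.

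The first comparison was between the genotypes without the drug, in the saline-treated mice. After normal saline, 39 of the 45 members had a higher fitted mean in A17α-MHCKO hearts, with a median log2 difference of 0.65 against -0.03 over all tested genes. A member is said here to pass the study's limits when its absolute log2 difference was over 1, its unadjusted p from edgeR's quasi-likelihood test was under 0.05 and its mean FPKM was over 1 in either group. By these limits 13 members were higher and 0 lower, where 0.671% of all tested genes were called higher. An unadjusted p under 0.05 with a higher level was found for 22 members (3.61% of all tested genes), and the 3 A17α-MHCKO mice lay above the 3 A17fl/fl mice, without overlap, for 22 members (5.52% of all tested genes). After Benjamini-Hochberg adjustment over all tested genes, 0 members had a p under 0.05 in edgeR, the smallest being 0.162 for Irf9, and 10 did in DESeq2. Over all 16101 tested genes 3 did in edgeR and 174 in DESeq2. The exact permutation test, two-sided, cannot go below 0.1 with 3 mice against 3, and any gene whose groups do not overlap stands at that value.

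The IFIT family, which binds viral RNA and blocks its translation, was higher as a whole after normal saline, with 3 of 4 members past the limits and a median log2 difference of 1.24. Ifit1 (ENSMUSG00000034459) was at 14.8, 8.56 and 14.8 CPM in A17fl/fl + NS mice and at 41.1, 27.8 and 31.4 CPM in A17α-MHCKO + NS mice. Every A17α-MHCKO mouse was above every A17fl/fl mouse, a 2.63-fold difference (log2 1.39 ± 0.33, SE; adjusted p = 0.26, edgeR's quasi-likelihood test). Ifit3 (ENSMUSG00000074896) had 20.4, 15.1 and 23.0 CPM against 52.0, 45.6 and 37.0 CPM, again without overlap (log2 1.20 ± 0.33). Ifit3b followed at 5.48, 3.77 and 8.08 CPM against 15.4, 14.3 and 12.4 CPM (log2 1.28 ± 0.36). Ifit2 was below the fold limit, at 20.8, 13.8 and 29.7 CPM against 42.5, 38.0 and 34.5 CPM (log2 0.84 ± 0.34), and its groups did not overlap either. Ifit1, Ifit3 and Ifit3b passed the limits whichever 1 library of the groups compared was left out.

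Of the 8 other antiviral effectors, 4 passed the limits. The largest log2 difference among all members was that of Mx2 (ENSMUSG00000023341), a gene of the dynamin-like Mx family. It rose from 0.981, 1.56 and 1.88 CPM to 5.37, 3.02 and 7.15 CPM (log2 1.81 ± 0.47). These are low levels, with a mean of 0.283 FPKM in A17fl/fl + NS and 1.06 FPKM in A17α-MHCKO + NS mice. Mx2 thus met the FPKM limit only through the group where it was high. Its call was lost in 1 of the 6 fits with a library of these groups left out. Mx1, lower still, had 1.39, 0.778 and 1.13 CPM against 1.67, 1.55 and 1.86 CPM (adjusted p = 0.713, edgeR). Bst2 (ENSMUSG00000046718), whose product tethers virus particles to the cell surface, had 49.9, 31.6 and 28.9 CPM against 68.7, 84.3 and 74.0 CPM (log2 1.04 ± 0.26). The groups of Mx2, Mx1 and Bst2 were apart, with every A17α-MHCKO mouse above every A17fl/fl mouse.

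Rsad2, which encodes viperin, an enzyme that makes a chain-terminating nucleotide, was at 10.7, 7.06 and 19.2 CPM in A17fl/fl + NS mice and at 38.8, 19.7 and 30.4 CPM in A17α-MHCKO + NS mice (log2 1.26 ± 0.38). Its neighbour Cmpk2, a mitochondrial nucleotide kinase that supplies the same pathway, had 7.62, 12.3 and 15.9 CPM against 32.4, 20.4 and 23.5 CPM (log2 1.09 ± 0.31). For Rsad2 the groups came close, 19.2 CPM in the highest A17fl/fl mouse and 19.7 CPM in the lowest A17α-MHCKO mouse. Eif2ak2, the RNA-dependent kinase PKR, was higher by less than the fold limit (log2 0.62 ± 0.18, adjusted p = 0.317, edgeR). Ifitm3 (log2 -0.27 ± 0.31) and the chaperone-like Rtp4 (log2 0.38 ± 0.31) had adjusted p-values of 0.812 and 0.704 in the same test.

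Among the transcription factors, Irf9 (ENSMUSG00000002325), the DNA-binding subunit of the complex with STAT2, had the smallest p of all 45 members. It was at 36.6, 26 and 28.5 CPM in A17fl/fl + NS mice and at 65.6, 53.1 and 56.3 CPM in A17α-MHCKO + NS mice, without overlap. The difference, log2 0.94 ± 0.18 (adjusted p = 0.162, edgeR's quasi-likelihood test), was below the fold limit, and it was log2 1.1 and past the limits without A17fl/fl + NS replicate 1. Its adjusted p was 0.00107 in DESeq2 and ran from 0.00107 to 0.774 over the alternatives tried. Irf7 (ENSMUSG00000025498), the factor that amplifies the interferon response, passed the limits with 27.7, 10.8 and 14.8 CPM against 42.3, 26.5 and 52.9 CPM (log2 1.19 ± 0.45, adjusted p = 0.403, edgeR). Its groups overlapped, since A17fl/fl + NS replicate 1 lay above the lowest A17α-MHCKO mouse. Stat2 was higher by log2 0.56 ± 0.24 (adjusted p = 0.465, edgeR) and Irf1, a factor of the interferon-γ arm, differed by log2 0.23 ± 0.29 (adjusted p = 0.829).

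None of the 4 cytosolic sensors passed the limits, though 2 had a p under 0.05. Ifih1, the sensor MDA5 of long double-stranded RNA, was at 17, 15 and 15.2 CPM against 28.7, 26.7 and 25 CPM, without overlap (log2 0.77 ± 0.20, adjusted p = 0.3, edgeR). Ddx58, the sensor RIG-I, was higher by log2 0.48 ± 0.20 (adjusted p = 0.457, edgeR). Dhx58, their regulator LGP2, and Zbp1, a sensor of Z-form nucleic acid, differed by log2 0.25 ± 0.40 and -0.15 ± 0.71. Zbp1 was at 19.9 CPM in A17fl/fl + NS replicate 1 against 2.51 and 3.51 CPM in the other 2 mice of that group.

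In the ISG15 and ubiquitin group 1 of 6 passed the limits, Usp18 (ENSMUSG00000030107), the protease that removes ISG15 and dampens the type I receptor. It had 8.95, 5.74 and 7.14 CPM in A17fl/fl + NS mice against 17.1, 12.5 and 15.2 CPM in A17α-MHCKO + NS mice, without overlap (log2 1.03 ± 0.28). Isg15 itself, the ubiquitin-like modifier, was at 20.1, 7.48 and 5.20 CPM against 18.9, 14.5 and 14.2 CPM (log2 0.54 ± 0.43, adjusted p = 0.698, edgeR). The first of these A17fl/fl libraries again had the highest value. The ubiquitin ligase gene Trim25 (log2 0.77 ± 0.45) and the PARP group Dtx3l, Parp9 and Parp14 (log2 0.24 to 0.41) did not reach a p of 0.05.

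The interferon-inducible GTPases, which act on the membranes around intracellular pathogens and respond to interferon-γ above all, had 2 of 7 members past the limits and a median log2 difference of 0.93. Gbp3 (ENSMUSG00000028268), a guanylate-binding protein, was at 24.5, 16.2 and 14.6 CPM in A17fl/fl + NS mice and at 43.3, 55.2 and 40.7 CPM in A17α-MHCKO + NS mice, without overlap (log2 1.33 ± 0.39). Iigp1 had 103, 41.0 and 85.5 CPM against 134, 281 and 159 CPM (log2 1.32 ± 0.59, adjusted p = 0.479, edgeR). Igtp, a regulatory IRG protein, had 108, 12.3 and 29.5 CPM against 62.2, 208 and 74.7 CPM (log2 1.20 ± 0.82, adjusted p = 0.638, edgeR). The groups of Iigp1 were apart and those of Igtp overlapped, with the widest error of the family. Gbp2, with 96.4 CPM in A17fl/fl + NS replicate 1 against 28.4 and 36.8 CPM in its group, differed by log2 -0.06 ± 0.51.

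Of the 7 remaining members 2 passed the limits, Ifi27 and Xaf1. Ifi27 (ENSMUSG00000064215), a small protein of mitochondrial and nuclear membranes, had 63.9, 36.5 and 38.8 CPM in A17fl/fl + NS mice against 104, 82.2 and 122 CPM in A17α-MHCKO + NS mice (log2 1.15 ± 0.24, adjusted p = 0.176, edgeR's quasi-likelihood test). Xaf1 (ENSMUSG00000040483), whose product opposes the apoptosis inhibitor XIAP, had 8.6, 9.39 and 13.6 CPM against 26.3, 18.4 and 23.8 CPM (log2 1.11 ± 0.26). In both genes every A17α-MHCKO mouse was above every A17fl/fl mouse. Ifi35 (log2 0.65 ± 0.15) and Phf11d (log2 0.86 ± 0.23) were apart in the same way with smaller differences and adjusted p-values of 0.258 and 0.306. Ifi44, Ifi27l2a and Lgals3bp were higher by log2 0.71, 0.30 and 0.31, with p-values between 0.149 and 0.49.

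**Figure D2:**
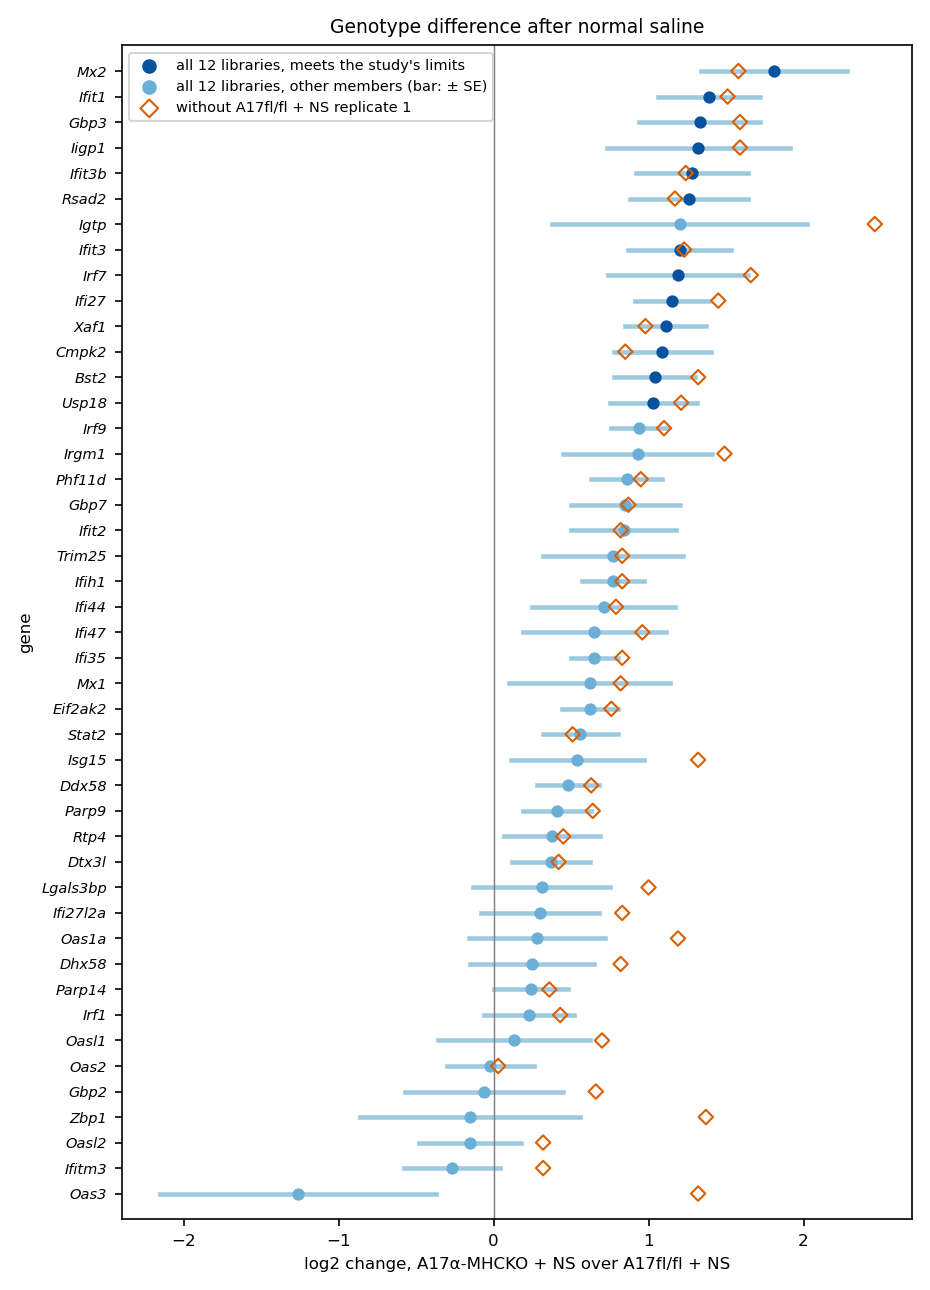
Log2 difference of A17α-MHCKO from A17fl/fl mice after normal saline for each of the 45 genes, ordered by size, with all 12 libraries (filled points, bars of 1 standard error from edgeR, dark where past the limits) and without A17fl/fl + NS replicate 1 (open diamonds). All 45 diamonds are above 0, and 39 of the filled points.

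The oligoadenylate synthetase (OAS) genes include several whose products make the messenger that activates RNase L. They had 0 of 5 members past the limits after normal saline, as the sensors had 0 of 4. Their median log2 difference of -0.02 was the lowest of the family medians, and no test between families was run. Oas3 was at 19.4, 0.718 and 1.69 CPM in A17fl/fl + NS mice and at 4.07, 2.98 and 2.03 CPM in A17α-MHCKO + NS mice (log2 -1.26 ± 0.89). Oas1a had 20.1, 4.91 and 6.14 CPM against 15.9, 11.5 and 10.5 CPM (log2 0.28 ± 0.44). In both genes A17fl/fl + NS replicate 1 was the highest of all 12 libraries and the other 2 mice of its group were below all 3 A17α-MHCKO mice. Without that library the difference was log2 1.32 ± 0.49 for Oas3, 1.19 ± 0.25 for Oas1a, 0.70 ± 0.47 for Oasl1, 0.32 ± 0.26 for Oasl2 and 0.03 ± 0.31 for Oas2.

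Without A17fl/fl + NS replicate 1, all 45 members were higher in A17α-MHCKO hearts after normal saline, with a median log2 difference of 0.87, 18 of them past the limits (0.707% of all tested genes were then called higher) and 30 with an unadjusted p under 0.05. Igtp (log2 2.46), Irgm1 (log2 1.49), Zbp1 (log2 1.37), Isg15 (log2 1.32), Oas1a (log2 1.19), Irf9 (log2 1.1) and Lgals3bp (log2 1.0) then passed, and Xaf1 (log2 0.98) and Cmpk2 (log2 0.85) no longer did. Ifi27, at log2 1.45, was the 1 member with an adjusted p under 0.05 (0.0254, edgeR), where its adjusted p ran from 0.00189 to 0.910 over all alternatives. Leaving out A17fl/fl + NS replicate 2, which was the lowest of the 12 libraries for 26 members, left 9 past the limits. The part that the neutrophil and macrophage markers of replicate 1 have in these differences was not tested.

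Markers of the atrium (Myl7, Myl4, Sln, Nppa, Bmp10, Dkk3) also varied, although the methods describe the samples as left ventricle and the labels as heart. Their 6 levels summed to 343 to 7600 CPM in A17fl/fl + NS mice, with a median of 1030 CPM, and to 3990 to 8640 CPM in A17α-MHCKO + NS mice. After doxorubicin the sums were 1810 to 4950 CPM in A17fl/fl and 1860 to 4110 CPM in A17α-MHCKO mice. Myl7, the atrial myosin light chain, was at 0, 1020 and 0.0626 CPM in A17fl/fl + NS mice against 464, 769 and 666 CPM in A17α-MHCKO + NS mice. Sln was at 0 in 2 libraries, A17fl/fl + NS replicates 1 and 3, Bmp10 in 3 libraries and Myl7 in 1. A17fl/fl + NS replicate 2 had the 7600 CPM and the lowest mean over the 45 members of all 12 libraries. The part of atrial tissue in the genotype difference was not tested.

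**Figure D3:**
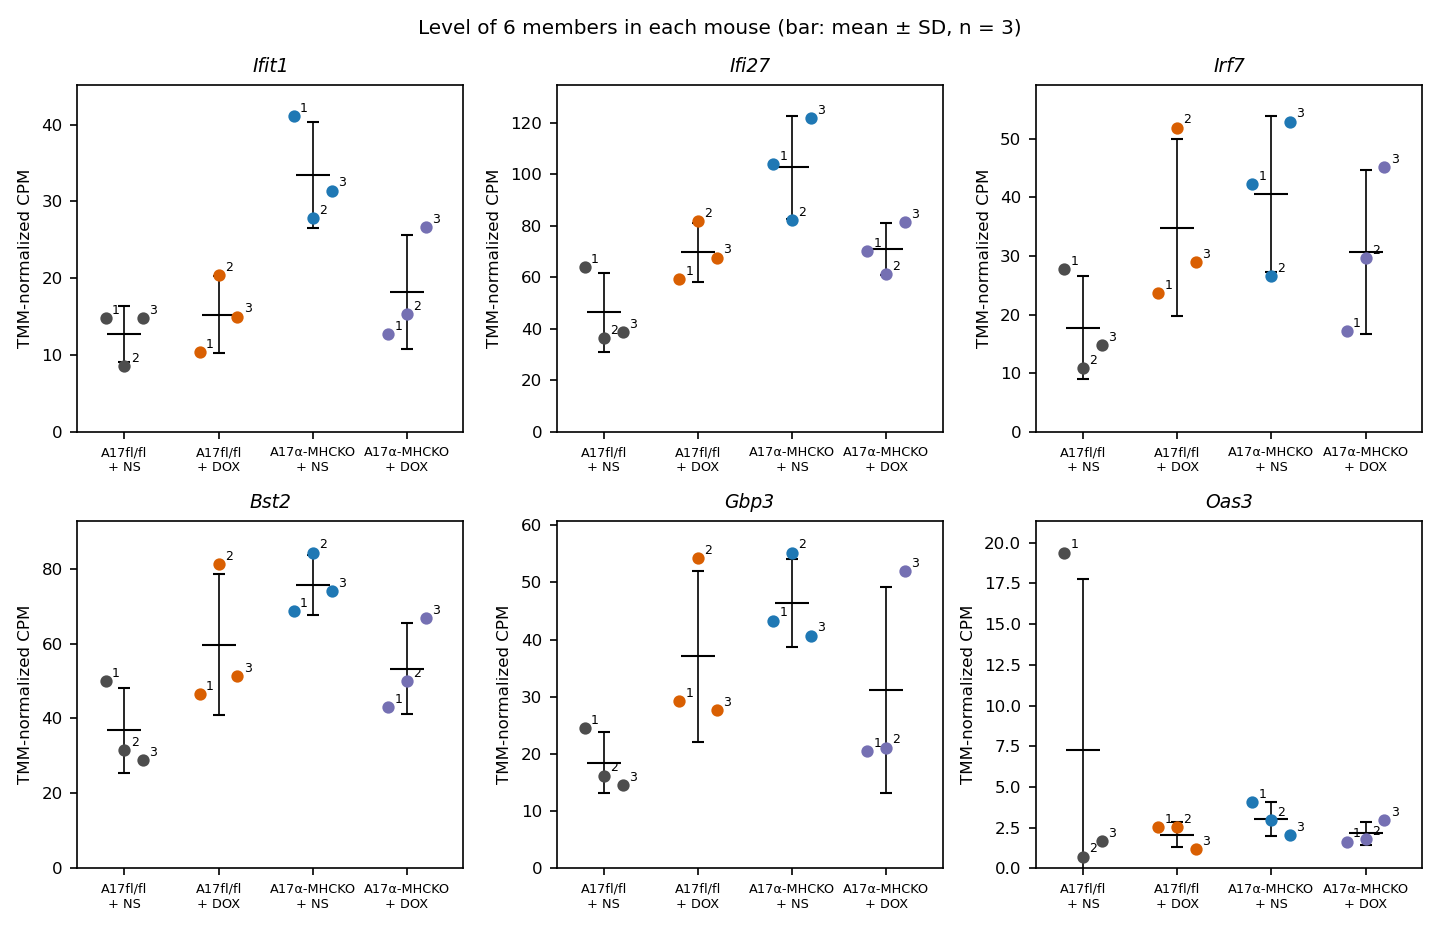
CPM of Ifit1, Ifi27, Irf7, Bst2, Gbp3 and Oas3 in each mouse of the 4 groups (numbered by replicate), with the group mean as a line and the SD as a bar (n = 3) that is cut at 0. In A17α-MHCKO + NS mice Ifit1 is between 27.8 and 41.1 CPM, above all 3 A17fl/fl + NS mice.

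The doxorubicin effect in A17fl/fl mice is the response of hearts with ADAM17 to the drug, against the same 3 A17fl/fl + NS mice. After doxorubicin 31 members had a higher fitted mean, with a median log2 difference of 0.40 against -0.04 over all tested genes. By the limits 1 member was called higher, where 0.596% of all tested genes were, and 9 members were higher at an unadjusted p under 0.05 (4.11% of all tested genes). The member past the limits was Gbp3, which went from 24.5, 16.2 and 14.6 CPM to 29.2, 54.3 and 27.6 CPM, without overlap (log2 1.0 ± 0.38, adjusted p = 0.421, edgeR's quasi-likelihood test). Its log2 difference sits on the fold limit, and it was 0.97 in a fit with a block for the replicate number. Ifi35 had the smallest p, with 24.4, 17.9 and 16.7 CPM before and 24.5, 30.5 and 28.8 CPM after (log2 0.51 ± 0.15, adjusted p = 0.358, edgeR), and its lowest treated mouse was only just above the highest control.

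The other 7 at a p under 0.05 were Bst2, Ifi27, Gbp7, Irf9, Ifih1, Phf11d and Xaf1, with log2 differences from 0.43 to 0.83. Bst2 was at 46.5, 81.2 and 51.3 CPM after doxorubicin against 49.9, 31.6 and 28.9 CPM (log2 0.70 ± 0.26). Ifi27 was at 59.4, 82.0 and 67.7 CPM against 63.9, 36.5 and 38.8 CPM (log2 0.59 ± 0.23). In both genes A17fl/fl + NS replicate 1 overlapped the treated mice and the other 2 controls lay below them. Irf7 had 23.6, 51.9 and 29.0 CPM against 27.7, 10.8 and 14.8 CPM (log2 0.97 ± 0.44, adjusted p = 0.467, edgeR). By family, the median log2 difference was 0.78 for the GTPases, 0.57 for the IFIT family and -0.43 for the OAS family. Oas3 was at 19.4, 0.718 and 1.69 CPM in the controls and at 2.52, 2.52 and 1.18 CPM after doxorubicin (log2 -1.81 ± 0.92). Without A17fl/fl + NS replicate 1 the difference was log2 0.78 ± 0.5 for Oas3 and 0.65 ± 0.25 for Oas1a. It was then 0.21 ± 0.47 for Oasl1, 0.04 ± 0.26 for Oasl2 and -0.38 ± 0.31 for Oas2.

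These counts depended on single mice. Without A17fl/fl + NS replicate 1, 5 members passed the limits (Irf7, Gbp3, Igtp, Irgm1 and Ifi47), where 0.597% of all tested genes were then called higher. In that fit 42 were higher and the median log2 difference was 0.58 over the members. Without A17fl/fl + DOX replicate 2, 0 members passed, 1 had an unadjusted p under 0.05 and the median was 0.12. The number past the limits was 3 without A17fl/fl + NS replicate 3 or A17fl/fl + DOX replicate 1 and 2 without A17fl/fl + DOX replicate 3, and 3 members had an unadjusted p under 0.05 without A17fl/fl + NS replicate 2. A17fl/fl + DOX replicate 2 was the highest of its group for 44 of the 45 members, where it was the highest for 32.7% of all tested genes.

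**Figure D4:**
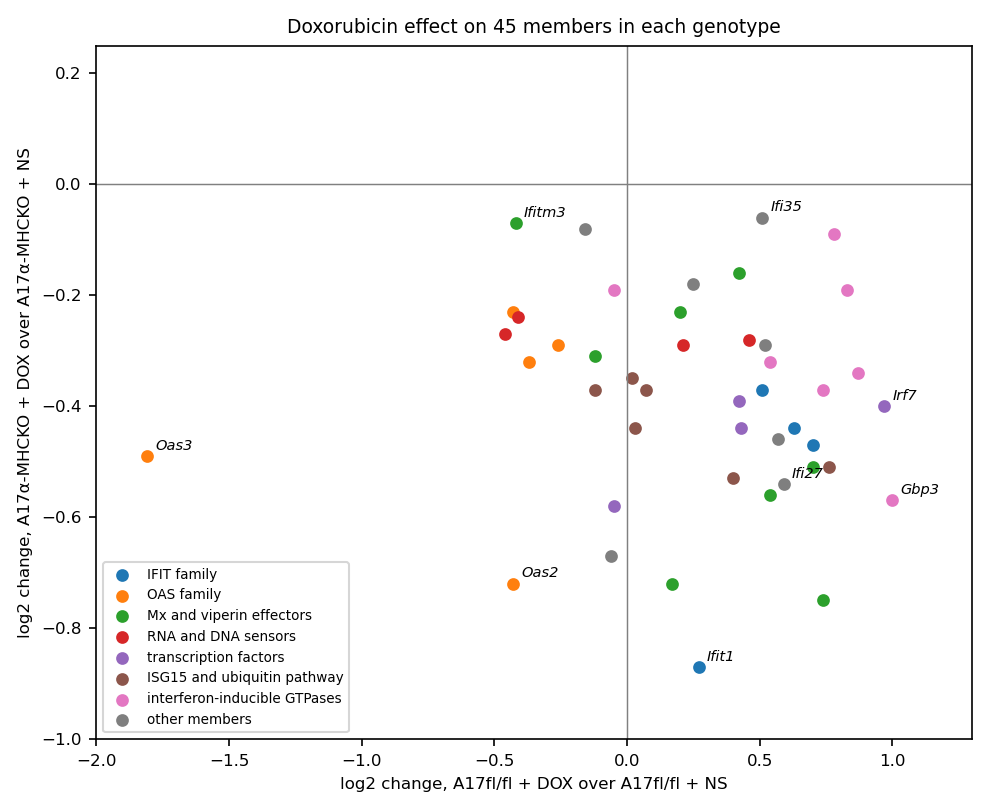
Log2 difference after doxorubicin for each of the 45 genes in A17fl/fl mice (x axis) and in A17α-MHCKO mice (y axis), coloured by role, with grey lines at 0. No member lies above 0 on the y axis, and 31 lie to the right of 0 on the x axis.

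In A17α-MHCKO mice the same drug went with lower levels. All 45 members had a lower fitted mean in A17α-MHCKO + DOX than in A17α-MHCKO + NS mice, with a median log2 difference of -0.37 against 0.00 over all tested genes. The differences were small beside the spread between mice. 0 members passed the limits in either direction (0.658% of all tested genes did) and 4 were lower at an unadjusted p under 0.05 (2.44% of all tested genes). After adjustment 0 had a p under 0.05 in edgeR, with a smallest value of 0.729, and 0 in DESeq2. Sums of cell type markers differed between the same groups. Markers of cardiomyocytes summed to 22200 to 28000 CPM in A17α-MHCKO + NS and 32000 to 34000 CPM in A17α-MHCKO + DOX mice. Those of fibroblasts summed to 1430 to 1820 CPM and 1150 to 1400 CPM. Both were without overlap, with none of the 6 markers of either list at 0. Single markers did not all follow the sums. Tnnt2, Actc1, Myl2 and Pln were higher without overlap, and Myh6 overlapped. Ryr2 was lower, at 671, 907 and 799 CPM after doxorubicin against 1320, 1170 and 956 CPM. Of the fibroblast markers Pdgfra was lower without overlap, and Dcn, Col1a1, Tcf21, Lum and Dpt overlapped. In A17fl/fl mice the cardiomyocyte sums were also higher without overlap, 13900 to 32600 CPM after normal saline and 34900 to 37400 CPM after doxorubicin. The fibroblast sums overlapped there, at 1160 to 3520 CPM and 1340 to 1360 CPM. The part of these markers in the result was not tested.

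Ifit1 had the largest of these 4 differences, from 41.1, 27.8 and 31.4 CPM after normal saline to 12.7, 15.3 and 26.7 CPM after doxorubicin, 0.547 times the level (log2 -0.87 ± 0.33, adjusted p = 0.729, edgeR). Oas2 went from 24.3, 16.3 and 19.5 CPM to 9.32, 12.2 and 14.9 CPM (log2 -0.72 ± 0.29), Irf9 from 65.6, 53.1 and 56.3 CPM to 39.3, 37.9 and 51.9 CPM (log2 -0.44 ± 0.18) and Ifi27 from 104, 82.2 and 122 CPM to 70.3, 61.4 and 81.5 CPM (log2 -0.54 ± 0.23). In all 4 the groups did not overlap, although the highest treated mouse came within a small margin of the lowest control. Irf1, next in p, was at 15.3, 16.5 and 25.2 CPM after doxorubicin against 18, 40.7 and 26.3 CPM (log2 -0.58 ± 0.29, adjusted p = 0.803, edgeR). Family medians ran from -0.46 for the IFIT family to -0.27 for the sensors.

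A17α-MHCKO + DOX replicate 3 was the highest of its group for 43 of the 45 members, against 32.1% of all tested genes. Its Ifit3 was 49.9 CPM beside 20.4 and 29.0 CPM in the other 2 mice, its Iigp1 300 CPM beside 52.2 and 90.7 CPM, and its Gbp3 51.9 CPM beside 20.5 and 21.1 CPM. These values lie within the range of A17α-MHCKO + NS mice, or for Iigp1 above it. Without this mouse 6 members passed the limits as lower, 20 had an unadjusted p under 0.05 and the median log2 difference was -0.70. The shares of all tested genes in that fit are not given here. Without A17α-MHCKO + DOX replicate 2, 1 member passed, and without A17α-MHCKO + DOX replicate 1, 0 had an unadjusted p under 0.05. That number was 1 without A17α-MHCKO + NS replicate 1 or A17α-MHCKO + DOX replicate 2.

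No member differed between the genotypes past the limits after doxorubicin. Against A17fl/fl + DOX mice, A17α-MHCKO + DOX mice had a higher fitted mean for 26 members and a lower one for 19, with a median log2 difference of 0.05 against 0.01 over all tested genes. 0 members passed the limits (0.205% of all tested genes) and 0 had an unadjusted p under 0.05 (2.7% of all tested genes), and 0 reached an adjusted p of 0.05 in edgeR or in DESeq2. The smallest p was that of Mx2, with 3.21, 1.69 and 4.49 CPM against 0.880, 2.09 and 1.99 CPM (log2 0.92 ± 0.46, adjusted p = 1, edgeR), and its groups overlapped. Trim25 differed by log2 -0.50 ± 0.45, Oas2 by -0.31 ± 0.29, Dhx58 by 0.42 ± 0.40 and Irf1 by -0.30 ± 0.29. Without A17α-MHCKO + DOX replicate 2 the log2 difference of Trim25 was -1.23 and passed the limits. The median was -0.26, with 3 members at an unadjusted p under 0.05, without A17α-MHCKO + DOX replicate 3, and it was 0.22 without A17fl/fl + DOX replicate 2.

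The interaction asks whether the doxorubicin effect itself differed between the genotypes. Subtracting the A17fl/fl effect from the A17α-MHCKO effect left a value below 0 for 38 of the 45 members, with a median of -0.74 on the log2 scale against 0.06 over all tested genes. By the limits 10 members were called lower (0.658% of all tested genes) and 16 had an unadjusted p under 0.05 (2.49% of all tested genes). The 10 were Ifi27, Bst2, Gbp3, Xaf1, Rsad2, Cmpk2, Ifit1, Ifit3, Ifit3b and Irf7. None reached an adjusted p of 0.05 in edgeR, where the smallest was 0.828, or in DESeq2, where it was 0.25. The interaction uses all 4 groups, the 3 A17α-MHCKO + NS and the 3 A17fl/fl + NS mice among them, so that its 10 calls, all of them among the 13 called between the genotypes after normal saline, are not a separate line of evidence.

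Gbp3 and Rsad2 had the lowest interaction values among the 10 and kept the call whichever library was left out. For Gbp3 the effect was log2 1.0 ± 0.38 in A17fl/fl mice and -0.57 ± 0.38 in A17α-MHCKO mice, a difference of -1.58 ± 0.54. For Rsad2 it was 0.74 ± 0.38 and -0.75 ± 0.38, a difference of -1.48 ± 0.54, with 16.6, 25.6 and 19.3 CPM in A17fl/fl + DOX mice and 12, 16.3 and 24.7 CPM in A17α-MHCKO + DOX mice. Put as genotype differences, Gbp3 had log2 1.33 ± 0.39 after normal saline and -0.25 ± 0.38 after doxorubicin, and Rsad2 1.26 ± 0.38 and -0.22 ± 0.38. Ifi27 (log2 -1.12 ± 0.33) and Irf9 (log2 -0.87 ± 0.26) had the smallest p. The medians by family were -1.10 for the IFIT family, -1.02 for the GTPases, -0.84 for the transcription factors and 0.05 for the OAS family. Without A17fl/fl + NS replicate 1 the interaction was log2 -1.27 ± 0.64 for Oas3 and -0.93 ± 0.33 for Oas1a. It was then -0.53 ± 0.62 for Oasl1, -0.34 ± 0.42 for Oas2 and -0.27 ± 0.35 for Oasl2.

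In 31 members the fitted effect of doxorubicin was above 0 in A17fl/fl and below 0 in A17α-MHCKO mice, a pattern that 19.7% of all tested genes had, and in the other 14 it was below 0 in both (29.7%). 0 members were in the remaining patterns, which held 24.7% and 25.8% of all tested genes. The number called in the interaction was 2 without A17fl/fl + DOX replicate 2, 4 without any 1 of A17fl/fl + NS replicate 2, A17α-MHCKO + NS replicate 1 and A17α-MHCKO + DOX replicate 1, 6 without A17α-MHCKO + DOX replicate 2, and 19 without A17α-MHCKO + DOX replicate 3. Without A17fl/fl + NS replicate 1 it was 13 (0.823% of all tested genes were then called lower), and all 45 members were then below 0.

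In the 2 doxorubicin groups nearly all members were highest in the same mouse. The mean of log2(CPM + 1) over the 45 genes was 4.57, 3.68 and 4.11 in A17fl/fl + NS mice, 4.18, 4.81 and 4.27 in A17fl/fl + DOX mice, 4.87, 4.82 and 4.74 in A17α-MHCKO + NS mice and 4.07, 4.26 and 4.87 in A17α-MHCKO + DOX mice. The pooled SD within groups was 0.35. The 3 A17α-MHCKO + NS mice were close to each other, and 1 mouse of each treated group reached their level. These are A17fl/fl + DOX replicate 2 and A17α-MHCKO + DOX replicate 3, the mice that were highest in their groups for 44 and 43 members. In the saline groups the members were divided between mice.

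The mouse with the most GTPase transcripts was not always the one with the most IFIT transcripts. In A17α-MHCKO + NS mice all 4 IFIT genes were highest in replicate 1 and all 7 GTPases in replicate 2, where Igtp was at 208 CPM and Irgm1 at 102 CPM. In A17fl/fl + NS mice all 4 IFIT genes were highest in replicate 3 and 6 of the 7 GTPases in replicate 1. The mean log2(CPM + 1) of the GTPases was 5.64, 6.36 and 5.65 in A17α-MHCKO + NS mice and 4.78, 5.07 and 6.46 in A17α-MHCKO + DOX mice.

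T and NK cell markers (Cd3e, Cd3d, Cd8a, Nkg7, Gzma, Klrd1), whose cells are the usual source of interferon-γ, also varied between mice. Their 6 levels summed to between 0.577 and 3.82 CPM in A17fl/fl + NS, 5.53 and 7.92 CPM in A17fl/fl + DOX, 3.25 and 9.11 CPM in A17α-MHCKO + NS and 3.27 and 9.84 CPM in A17α-MHCKO + DOX mice. The 2 highest sums, 9.84 and 9.11 CPM, belonged to A17α-MHCKO + DOX replicate 3 and A17α-MHCKO + NS replicate 2, the mice with the highest GTPases. Other groups did not show this order. In A17fl/fl + DOX mice the GTPases were highest in replicate 2, whose sum was 7.82 CPM beside 7.92 CPM in replicate 1. In A17fl/fl + NS replicate 1 Cd3e, Cd8a, Nkg7 and Gzma were at 0 counts, although its GTPases were the highest of its group. These are low sums, and their part in the results was not tested.

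**Figure D5:**
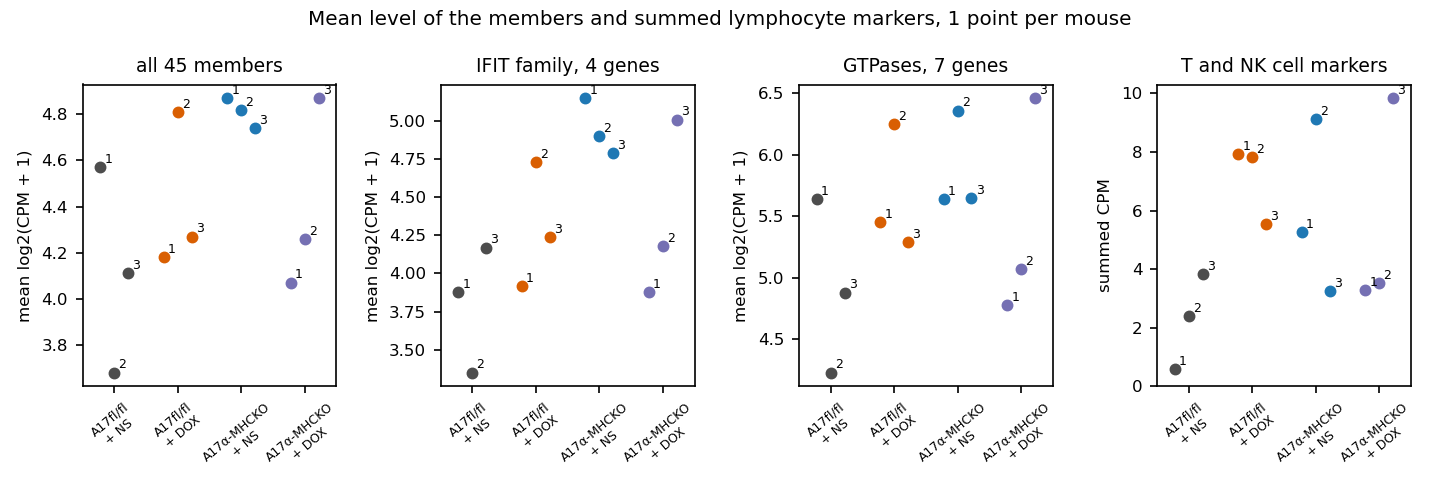
Mean log2(CPM + 1) of all 45 genes, of the 4 IFIT genes and of the 7 GTPases, and the summed CPM of 6 T and NK cell markers, for each of the 12 mice by group. A17fl/fl + DOX replicate 2 and A17α-MHCKO + DOX replicate 3 reach 4.81 and 4.87 over the 45 genes, the level of the A17α-MHCKO + NS mice.

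The interferons themselves were at the limit of detection. Of 9 interferon genes listed, 8 had 0 counts in all 12 libraries, which allows up to 3 counts, or 0.138 to 0.188 CPM. Ifng, the gene of interferon-γ, had 3, 0 and 0 counts in A17fl/fl + NS, 5, 0 and 1 in A17fl/fl + DOX, 0, 5 and 0 in A17α-MHCKO + NS and 0, 1 and 3 in A17α-MHCKO + DOX mice. None of the 9 could be tested, and differences between groups were not detectable at this depth.

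The wider pathway held 92 tested genes of 103 listed, in lists drawn up by function. Between the genotypes after normal saline 5 of these were called higher and 4 lower, after doxorubicin in A17fl/fl mice 5 and 5, after doxorubicin in A17α-MHCKO mice 0 and 2, and in the interaction 4 and 4. Of all tested genes, 0.671% and 2.32% were called higher and lower between the genotypes after normal saline, 0.596% and 2.22% after doxorubicin in A17fl/fl mice, and 1.47% and 0.658% in the interaction. After doxorubicin in A17α-MHCKO mice 0.658% were called in either direction. Without A17fl/fl + NS replicate 1 the pathway counts became 9 higher and 1 lower between the genotypes after normal saline, 8 and 0 after doxorubicin in A17fl/fl mice, and 2 and 10 in the interaction. In that fit 0.707% and 0.841%, 0.597% and 0.646%, and 0.89% and 0.823% of all tested genes were called higher and lower, in the same order.

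No receptor gene passed the limits in any of the 5 comparisons. Ifngr1 was between 64.1 and 81.2 CPM in all 12 libraries, and Ifnar1 and Ifnar2 were highest in A17fl/fl + NS replicate 1, at 55.8 and 54.6 CPM. Jak1, the kinase of both receptors, was lower after doxorubicin in A17fl/fl (log2 -0.38 ± 0.15, adjusted p = 0.432) and in A17α-MHCKO mice (log2 -0.43 ± 0.15, adjusted p = 0.712), below the fold limit and with an unadjusted p under 0.05 in edgeR in both. Of 17 sensing and adaptor genes Traf3 was higher after doxorubicin in A17fl/fl mice, at 25.1, 20.7 and 22.3 CPM against 12.1, 10.6 and 9.65 CPM (log2 1.07 ± 0.29), without overlap.

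Among 54 other interferon-stimulated genes tested, Irgm2, Tgtp2, Apol9a and Apol9b were called higher after normal saline in A17α-MHCKO mice, by log2 1.53 to 1.59. Irgm2 was at 69.4, 33.2 and 45.9 CPM against 119, 215 and 107 CPM. The GTPase genes Gbp4 (log2 1.35), Irgm2 (log2 1.31) and Tgtp2 (log2 1.38) were called higher after doxorubicin in A17fl/fl mice, and the near-identical pair Apol9a (log2 -1.51) and Apol9b (log2 -1.45) lower in A17α-MHCKO mice. The 4 called lower between the genotypes after normal saline were Socs3, Ikbke, Ifitm1 and Ifi205. Of these Socs3, Ikbke and Ifitm1 were at 233, 30.1 and 89.8 CPM in A17fl/fl + NS replicate 1 and at no more than 18.2, 3.02 and 11.0 CPM in any other library. Ifi205 was at 68.6, 31.2 and 53.2 CPM against 32.2, 16.1 and 18.1 CPM (log2 -1.21 ± 0.31), with groups that overlapped. Without that library the log2 differences were -0.78 for Socs3, 0.03 for Ikbke, -1.11 for Ifitm1 and -0.94 for Ifi205, and of the 4 only Ifitm1 passed the limits.

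Other calls of the wider pathway were Socs3 (log2 -3.09), Ifitm1 (log2 -2.93), Ikbke (log2 -2.31), Slfn2 (log2 -1.84) and Ifi204 (log2 -1.0), lower after doxorubicin in A17fl/fl mice. All 5 were highest in A17fl/fl + NS replicate 1 of the 3 controls, and without it they had log2 differences of -0.68, -0.85, -0.10, 0.26 and -0.22, none past the limits. In the interaction Ifitm1 (log2 3.66), Socs3 (log2 3.35), Ly6a (log2 1.78) and Ifi205 (log2 1.75) were called higher and Apol9b (log2 -1.78), Apol9a (log2 -1.68) and Traf3 (log2 -1.09) among those lower. Without that library Socs3 (log2 0.94) and Ly6a (log2 0.79) no longer passed, while Ifitm1 (log2 1.57) and Ifi205 (log2 1.48) did. Below the limits, the smallest p in the lists belonged after doxorubicin in A17fl/fl mice to Jak2 (log2 -0.76), Trim21 (log2 0.75) and Irf4 (log2 0.80), and in A17α-MHCKO mice to Adar (log2 -0.40), Pias1 (log2 -0.12), Tyk2 (log2 -0.27), Ticam1 (log2 0.37) and Tlr3 (log2 -0.42). Between the genotypes they belonged to Stat3 (log2 -0.66), Myd88 (log2 -0.80) and Irf4 (log2 0.62) after normal saline. After doxorubicin they belonged to Traf3 (log2 -0.74), Irf3 (log2 0.29), Tyk2 (log2 -0.23), Il10rb (log2 0.15), Ifit1bl1 (log2 0.44), Ifi205 (log2 0.54), Trex1 (log2 -0.54) and Irf4 (log2 -0.36), and in the interaction to Stat3 (log2 0.57), Irf4 (log2 -0.97) and Tlr9 (log2 -1.31).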

How the data were processed

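RNA of 12 mouse hearts (left ventricles, per the methods), 3 mice in each of 4 groups, was sequenced from stranded paired-end mRNA libraries. The authors deposited, for 53465 genes, a fragment count per gene made with StringTie, without normalization, and an FPKM. The deposited FPKM equal the count divided by gene length and library total. The submitters' processing notes name CASAVA 1.8, HISAT2, SAMtools 1.3.1, edgeR and the build GRCm39, while positions and promoters given here are GRCm38 from GENCODE M21 and RefSeq GRCm38.p6. The strand setting of the counting is not given in the sources used here.

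The counts went into edgeR 4.0.16 under R 4.3.3 (filterByExpr, TMM, glmQLFit and glmQLFTest, two-sided) in one model of 4 group means with 8 residual degrees of freedom, which left 16101 genes. The common dispersion was 0.0842. P-values were adjusted by Benjamini-Hochberg over all tested genes, and standard errors are the log2 difference divided by the square root of F. DESeq2 1.42.0 was an alternative, besides RLE scaling, no filter, a replicate block, the 2 groups alone, a limit on CPM instead of FPKM, adjusted p-values and each library left out. Code was tested on simulated data. The members, lists and comparisons were chosen with earlier results of these data known. Members described by library were those past the limits and the 5 others with the smallest p in each comparison. In the wider pathway, named genes were those past the limits and, per list and comparison, the 2 with the smallest p. The receptors Ifnar1, Ifnar2 and Ifngr1 were added, and 1 gene of the lists is counted but not reported here singly.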

Additional observations from a re-analysis of the deposited data

Results flagged for a closer look

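By the interaction term of the model, 10 members passed the unadjusted limits used throughout, all as lower, where 0.658% of all tested genes were called lower. All 10 are also among the 13 members called between the genotypes after normal saline. With the A17fl/fl effect subtracted from the A17α-MHCKO effect, the log2 values were -1.12 for Ifi27, -1.2 for Bst2, -1.58 for Gbp3, -1.03 for Xaf1, -1.48 for Rsad2, -1.11 for Cmpk2, -1.14 for Ifit1, -1.07 for Ifit3, -1.17 for Ifit3b and -1.38 for Irf7. All 10 had an adjusted p of 0.828 in edgeR's quasi-likelihood test. In each of the 10 the fitted effect was above 0 in A17fl/fl mice and below 0 in A17α-MHCKO mice, and 2 of them, Gbp3 and Rsad2, passed the limits whichever library was left out.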

How the results depend on the processing

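The median log2 differences of the 45 members kept their sign under every alternative except the genotype comparison after doxorubicin. With 1 library left out the median ran from 0.12 to 0.58 for doxorubicin in A17fl/fl mice, from -0.70 to -0.25 for doxorubicin in A17α-MHCKO mice, from 0.57 to 0.87 for genotype after normal saline, from -0.26 to 0.22 for genotype after doxorubicin and from -1.03 to -0.53 for the interaction. The number of members past the limits ran, in the same order, from 0 to 5, 0 to 6, 9 to 18, 0 to 1 and 2 to 19. Of the fits with a library left out, only the one without A17fl/fl + NS replicate 1 has shares of all tested genes given here. The 1 member called after doxorubicin in A17fl/fl mice became 0 with RLE scaling, DESeq2, the replicate block or adjusted p-values. With an adjusted p under 0.05 in edgeR in place of the unadjusted one, the calls became 0 after normal saline and 0 in the interaction. Same-numbered mice had correlations of their deviations from -0.09 to 0.22, so the numbers were not taken to pair them. With the replicate block 12 members passed after normal saline and 9 in the interaction, with medians of 0.67 and -0.75, and Iigp1 (log2 1.25) and Irf7 (log2 -1.40) lost their call in these. The interaction could not be fitted with the 2 groups alone. Depth limits the interferon genes and Mx1, and 3 mice per group limit the rest. Where nothing else is said, the cause of these changes was not tested. P-values set a difference against the spread between mice within these groups.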
